A study of Mus musculus with 8 samples.

Results

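Irf5, Ddx58, Ripk2, Map3k7 and Birc3 are genes of innate sensing and NF-kB signalling, and they were followed here in mouse leukemia cells with and without Gata2. They are 5 of the 49585 rows of the deposited count table. They were picked by name after the counts of the Gata2 KO and Gata2 f/f libraries had been compared, so their own differences are given as a description, with no test. The cells came from bone marrow and are labelled MA9, which usually stands for the leukemia fusion gene MLL-AF9. The medium of all 8 held 15% serum and the cytokines SCF (at 20 ng/mL), IL-6 (at 10 ng/mL) and IL-3, and poly(A) RNA was sequenced. The controls were Gata2 f/f (intact Gata2 alleles flanked by recombination sites, 4 libraries) and the others Gata2 KO, whose genotype is Gata2 -/- (4 libraries). Gata2 encodes a DNA-binding regulator needed in blood stem cells. The labels name neither the recombinase, nor the age of the animals, nor whether libraries of a genotype came from separate leukemias, so a p-value measures only the spread between these libraries.

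Innate sensing starts with receptors that bind microbial or misplaced nucleic acids and cell wall fragments. RIG-I, the product of Ddx58, binds RNA in the cytosol and signals through the adaptor MAVS, while RIPK2 carries the signal of the peptidoglycan sensors NOD1 and NOD2. Both routes lead to the kinase TAK1, the product of Map3k7, which activates the IKK complex and so frees NF-kB. The ubiquitin ligase cIAP2, the product of Birc3, modifies RIPK proteins and is itself a known NF-kB target, and IRF5 turns on cytokine genes in macrophages after Toll-like receptor signals.

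The Gata2 row held 0, 0, 1 and 1 counts in Gata2 f/f replicates 1 to 4 and 2, 0, 0 and 0 in Gata2 KO replicates 1 to 4, so it does not check the labels. A count of 0 allows up to 3 counts, or 0.481 to 1.86 CPM over the 8 libraries (CPM are counts per 1e6 counts of the library), for counting error only. Library totals ran from 1610369 to 6237748 counts. Many row names cannot be read as the gene counted. Of the protein-coding rows of families that every cell uses, such as ribosomal and respiratory chain proteins, 23 lie in the stretches of chromosomes 4, 6 and 15 used here. In the pooled libraries 21 of these 23 had at least 20 CPM, against 90 of 544 elsewhere. The stretches were chosen with earlier results of these data known, and the genes at their ends are counted among the 23. The higher share there is therefore no independent check of the names. Mitochondrial transcripts took 4.01 to 4.73% of counts in Gata2 KO and 3.14 to 3.83% in Gata2 f/f, and their part in the results below was not tested.

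The rows around each of the 5 genes show how far its name can be trusted. Irf5 (chromosome 6 from 29526625 to 29541871 in GRCm38, forward strand) has 19 other protein-coding rows within 500 kb. Of these, 7 had at least 20 CPM, among them the proton pump subunit Atp6v1f and the nuclear import factor Tnpo3, and 9 had under 1 CPM, among them leptin (Lep) and the cone opsin Opn1sw. Around Ddx58 (chromosome 4 from 40203773 to 40239828, reverse strand) 7 of 8 such rows had at least 20 CPM. These were Aco1, Topors, Ndufb6 of the respiratory chain, Tmem215, Aptx, the chaperone Dnaja1 and Smu1. Around Ripk2 (chromosome 4 from 16122733 to 16163647, reverse strand) Decr1, Nbn and Osgin2 had at least 20 CPM and the neuronal and renal gene Calb1 had under 1.

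Map3k7 (chromosome 4 from 31964097 to 32023467, forward strand) stands nearly alone, with Bach2 as the single other protein-coding row within 500 kb, at under 1 CPM. Rows farther off were therefore read, under the same limit. The respiratory chain assembly factor Ndufaf4, which starts at 24898083, had 342 pooled CPM, and Ube2j1, which starts at 33031416, had 622. Ndufaf6, which starts at 11051045, had 84.5 CPM and lies on the other side of Ripk2. Birc3 (chromosome 9 from 7848699 to 7873186, reverse strand) lies outside the 3 stretches. Of 13 protein-coding rows within 500 kb of it, Mmp12, Mmp8, Tmem123 and Birc2 had at least 20 CPM, and 8 had under 1 CPM, among them Yap1, which blood cells do not normally express. None of these 12 belongs to such a family, so its name is the least sure of the 5.

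The bases before the start sites are shown because these 5 genes were grouped for acting in 1 pathway, and because the 3 higher ones could be compared there with Map3k7. They are the 250 bases before the RefSeq start of each gene in GRCm38.p6, 5′ to 3′ on the gene's own strand, for the 4 genes with an entry in the promoter table. Capitals mark a match to a searched motif.
Irf5 (chr6:29526375-29526624, forward strand): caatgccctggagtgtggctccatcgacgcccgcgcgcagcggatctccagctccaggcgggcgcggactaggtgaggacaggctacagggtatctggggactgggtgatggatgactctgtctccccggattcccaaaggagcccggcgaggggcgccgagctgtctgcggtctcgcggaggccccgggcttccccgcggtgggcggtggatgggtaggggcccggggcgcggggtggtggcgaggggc
Ddx58 (chr4:40239826-40240075, reverse strand): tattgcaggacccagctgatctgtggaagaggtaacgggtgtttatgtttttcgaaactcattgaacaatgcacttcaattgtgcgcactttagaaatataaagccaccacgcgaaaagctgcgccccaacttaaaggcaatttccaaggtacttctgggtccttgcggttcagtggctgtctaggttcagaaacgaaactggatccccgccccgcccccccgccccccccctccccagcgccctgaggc
Birc3 (chr9:7873171-7873420, reverse strand): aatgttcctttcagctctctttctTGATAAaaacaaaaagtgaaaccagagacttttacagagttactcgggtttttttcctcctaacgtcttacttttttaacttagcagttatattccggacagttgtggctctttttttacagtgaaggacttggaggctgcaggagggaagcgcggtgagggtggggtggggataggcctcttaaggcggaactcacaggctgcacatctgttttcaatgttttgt
Map3k7 (chr4:31963857-31964106, forward strand): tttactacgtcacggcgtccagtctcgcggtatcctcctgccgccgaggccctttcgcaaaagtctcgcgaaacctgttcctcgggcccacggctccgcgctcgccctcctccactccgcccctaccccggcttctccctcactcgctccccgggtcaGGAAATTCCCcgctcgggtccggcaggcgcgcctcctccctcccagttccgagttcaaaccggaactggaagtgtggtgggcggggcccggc

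Both strands were searched for 3 motifs, which do not overlap each other in these windows. The GATA motif, as AGATAA or TGATAA, was present in 16.6% of all 32851 windows of that length, and among the 4 shown here in that of Birc3 alone, at bases -226 to -221 from the start. The NF-kB consensus was present in 5.0% of all windows and here in that of Map3k7 alone, on the opposite strand at bases -92 to -83. The interferon-stimulated response element, as GAAA, any 2 bases and GAAA, was present in 2.98% of all windows and in none of the 4. A match is a stretch of letters and not a bound site, and the absence of a match says only that these letters are not in the window.

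Among the 5 genes the sensor Ddx58, the transcription factor Irf5 and the ligase Birc3 were higher in Gata2 KO, while the kinases Ripk2 and Map3k7 lay at the same level in both genotypes within the spread of the libraries. In edgeR 3 of the 5 were past an adjusted p of 0.05, all higher, beside 8.97% of the 6580 rows tested that were past it in that direction. The same 3 did not overlap between genotypes in CPM, beside 10.8% of rows, and with the replicate number as a block the same 3 were past the threshold, beside 18.8%. Since the genes were picked on this contrast, nothing is read from these counts. The median log2 fold change was 0.65 over the 5 genes, which is the value of Birc3, and -0.01 over all rows tested. For the same reason nothing is read from this difference.

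Irf5 had 51.2, 64.6, 40.3 and 49.6 CPM in Gata2 f/f replicates 1 to 4 and 228, 238, 256 and 304 CPM in Gata2 KO replicates 1 to 4. Every Gata2 KO library lay above every Gata2 f/f library, and the lowest of the former was more than 3 times the highest of the latter. This was a log2 fold change of 2.34 ± 0.15 (SE, edgeR, 4 libraries each), a 5.08-fold higher level. Within replicate numbers the ratio of Gata2 KO to Gata2 f/f ran from 3.69 in number 2 to 6.36 in number 3. Its lowest count in any library was 86.

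Ddx58 had 32.4, 33.5, 28.6 and 48.2 CPM in Gata2 f/f replicates 1 to 4 and 89.1, 83.9, 74.3 and 82.9 CPM in Gata2 KO replicates 1 to 4. The groups did not overlap, and Gata2 f/f replicate 4 stood above the other 3 controls. On the log2 scale the fold change was 1.21 ± 0.16 (SE, edgeR), a 2.31-fold higher level. The ratio within replicate numbers was 2.75, 2.50 and 2.60 in numbers 1 to 3 and 1.72 in number 4. Without both libraries numbered 4 the log2 fold change was 1.41. Ddx58 was the least abundant of the 5 genes, with 54 to 264 counts per Gata2 f/f library.

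Birc3 had 171, 152, 195 and 213 CPM in Gata2 f/f replicates 1 to 4 and 316, 238, 278 and 298 CPM in Gata2 KO replicates 1 to 4. The groups did not overlap, but the lowest Gata2 KO library lay close above the highest control. Fitted in edgeR, the log2 fold change was 0.65 ± 0.12 (SE), a 1.57-fold higher level. All 4 replicate numbers had a higher value in Gata2 KO, with ratios from 1.40 in number 4 to 1.85 in number 1.

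**Figure D1:**
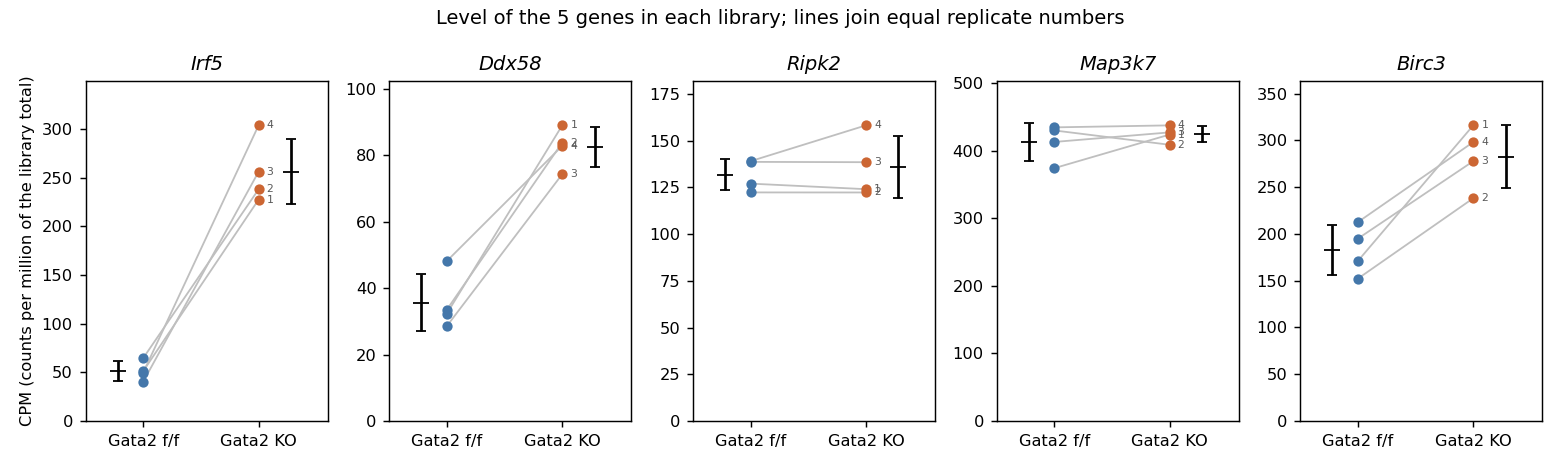
CPM (y axis, from 0) of Irf5, Ddx58, Ripk2, Map3k7 and Birc3 in the 4 Gata2 f/f and 4 Gata2 KO libraries; each point is 1 library, grey lines join equal replicate numbers, and black bars are the mean with its SD. Irf5, Ddx58 and Birc3 do not overlap between genotypes, while the ranges of Ripk2 and Map3k7 do.

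Ripk2, the kinase downstream of NOD1 and NOD2, had 127, 122, 139 and 139 CPM in Gata2 f/f replicates 1 to 4 and 124, 122, 139 and 158 CPM in Gata2 KO replicates 1 to 4. The groups overlapped, and only Gata2 KO replicate 4 lay above the range of the controls. The log2 fold change was 0.06 ± 0.10 (SE, edgeR). The pair ratio was 0.977, 1.00 and 0.999 in numbers 1 to 3 and 1.14 in number 4.

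Map3k7, the kinase TAK1 on which these routes meet, had 374, 430, 413 and 435 CPM in Gata2 f/f replicates 1 to 4 and 424, 409, 427 and 438 CPM in Gata2 KO replicates 1 to 4. The groups overlapped, with Gata2 f/f replicate 1 below all other libraries. The log2 fold change was 0.06 ± 0.09 (SE, edgeR), and the pair ratios ran from 0.951 to 1.13. Its coefficient of variation was 2.80% over the Gata2 KO libraries, the lowest of the 5 genes there, and 6.66% over the controls, next to 6.38% for Ripk2. Its 10936 counts over the 8 libraries were the most of the 5 genes.

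Levels of different genes are compared here per kilobase of annotated exon, pooled over all transcripts of the gene. In Gata2 f/f the order from the top was Map3k7 (64.3 ± 4.28 CPM per kb, SD, n = 4 here and below), Ripk2 (46.8 ± 2.99), Birc3 (36.5 ± 5.30), Irf5 (17.7 ± 3.44) and Ddx58 (5.06 ± 1.22). No 2 neighbours in that order overlapped in their libraries. In Gata2 KO Irf5 stood first at 88.3 ± 11.6 CPM per kb, followed by Map3k7 (66.1 ± 1.85), Birc3 (56.4 ± 6.69), Ripk2 (48.2 ± 5.91) and Ddx58 (11.7 ± 0.865). There the ranges of Birc3, from 47.5 to 63.1, and Ripk2, from 43.4 to 56.2, overlapped, while Map3k7 began at 63.7, just above Birc3. Irf5 thus moved from the fourth place to the first in this order, and Ddx58 stayed in the last. Fewer cells expressing a gene and less RNA per cell cannot be told apart in such bulk libraries.

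**Figure D2:**
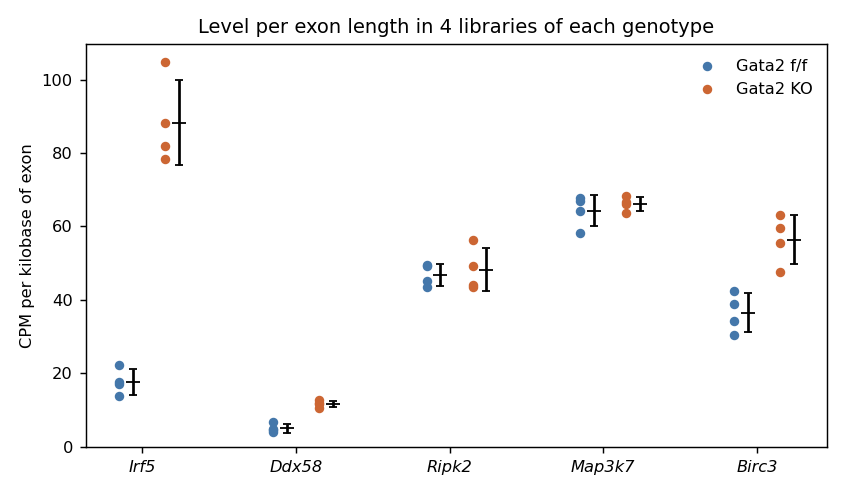
CPM per kilobase of exon (y axis, from 0) of the 5 genes, with 1 point per library, Gata2 f/f in blue and Gata2 KO in orange, and the mean with its SD in black. Irf5 lies below Ripk2, Map3k7 and Birc3 in Gata2 f/f and above all of them in Gata2 KO, at 88.3 CPM per kb.

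Birc3 has a close relative beside it, Birc2, which encodes the ligase cIAP1 and lies 11634 bases away on the same strand. Birc2 had 101, 87.6, 97.5 and 114 CPM in Gata2 f/f replicates 1 to 4 and 113, 98.7, 96.4 and 101 CPM in Gata2 KO replicates 1 to 4. The groups overlapped, and the log2 fold change was 0.05 ± 0.12 (SE, adjusted p = 0.865, edgeR). The ratio of Birc3 to Birc2 counts was 1.69 to 2.0 in the Gata2 f/f libraries and 2.41 to 2.95 in the Gata2 KO libraries. The sequences of these genes are alike, so the counting could have moved some reads from one to the other, which was not tested. The difference between the genes was not tested either, because Birc3 was picked for its own.

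Irf5 overlaps its neighbour Tnpo3, which lies on the other strand, at their 3′ ends. Of the 2905 exonic bases of Irf5, 411 are also exonic in Tnpo3, and the library kit does not mark strand, so reads from the shared part cannot be assigned. Tnpo3 had 651, 659, 692 and 726 CPM in Gata2 f/f replicates 1 to 4 and 541, 596, 610 and 665 CPM in Gata2 KO replicates 1 to 4. Its log2 fold change was -0.16 ± 0.09 (SE, adjusted p = 0.306, edgeR; 0.0482 with the replicate number as a block). The ratio of Irf5 to Tnpo3 counts was 0.0582 to 0.0980 in Gata2 f/f and 0.400 to 0.457 in Gata2 KO. Tnpo3 was thus lower in all 4 replicate numbers where Irf5 was higher in all 4.

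**Figure D3:**
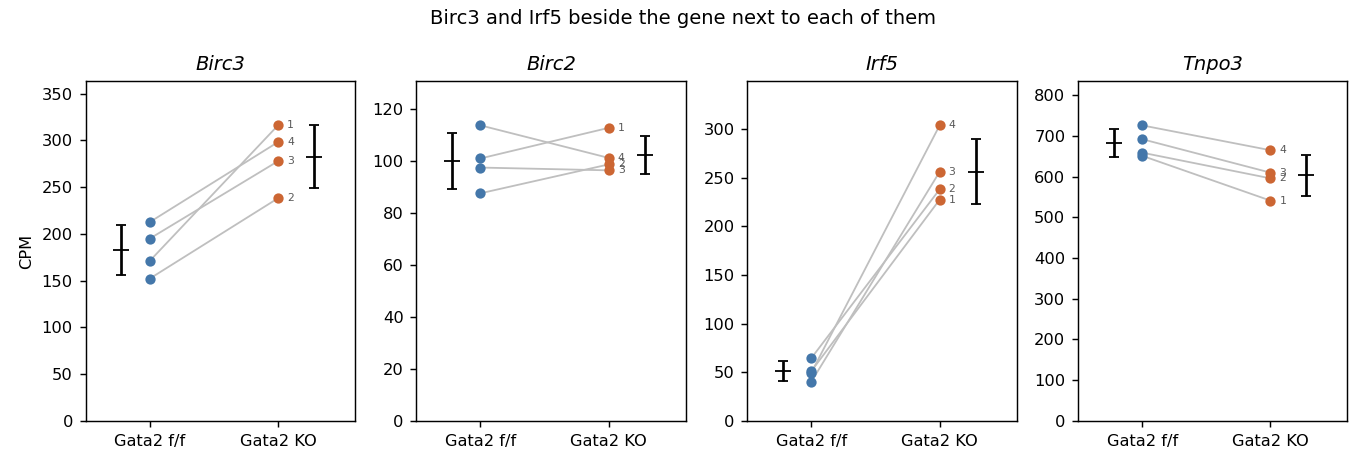
CPM (y axes, from 0 and with their own scale) of Birc3, its neighbour Birc2, Irf5 and its neighbour Tnpo3 in each library; lines join equal replicate numbers and black bars are the mean with its SD. Birc2 overlaps between genotypes at 87.6 to 114 CPM, and Tnpo3 is lower in Gata2 KO in every replicate number.

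The 2 nearest tested rows on each side of each of the 5 genes make up 20 rows. In edgeR 0 of these passed an adjusted p of 0.05 (2 had an unadjusted p under 0.05), beside 12.5% of all rows tested. Over all rows DESeq2 called 637 higher and 309 lower, and of these 20 it also called 0. The share of rows it called was not computed, so nothing is read from that 0. With the replicate number as a block 5 were higher and 4 lower, beside 18.8% and 16.7% of all rows (35.5% in either direction). Next to Ddx58, Aco1, which encodes an iron-responsive aconitase, had 461 ± 26.4 CPM in Gata2 f/f and 522 ± 25.1 in Gata2 KO (SD, n = 4 each; adjusted p = 0.202, edgeR, and 0.0195 with the block). On its other side Topors, a ubiquitin and SUMO ligase, had a log2 fold change of -0.10 ± 0.09 (SE). Next to Ripk2, Osgin2 had 116 ± 1.76 CPM in Gata2 f/f and 90.3 ± 7.29 in Gata2 KO (SD, n = 4 each; adjusted p = 0.0811, edgeR, and 0.00250 with the block). Nbn, of the DNA break sensing complex, lay at -0.31 ± 0.15 on the log2 scale (SE; edgeR adjusted p = 0.206, and 0.00267 with the block). Beside Irf5, Atp6v1f lay at 0.32 ± 0.14 (SE; edgeR adjusted p = 0.180, and 0.00152 with the block). The others called with the block were Cpne3 (adjusted p = 0.0130), Jrkl (0.0452) and Ccdc82 (0.0244), higher, and Mdn1 (0.0395), lower, and Tnpo3 above is the remaining one. Some of these nearest tested rows lie far off. Cpne3 lies 3355606 bases from Ripk2, and Jrkl and Ccdc82 lie 5369420 and 5373768 bases from Birc3. The rows beside Birc3, Jrkl and Ccdc82 among them, are outside the 3 stretches, so their names are less sure.

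Other genes of the pathway were taken from a list of 14 that lie in the 3 stretches. The list was chosen with earlier results of these data known. The calls and p-values of its genes, here and below, are therefore no independent tests. In edgeR 1 of the 10 tested rose, 1 fell and 8 did not pass, beside 8.97% and 3.53% of all rows called in each direction and 9.49% and 2.77% of the 253 rows tested in the stretches. With the block 3 rose and 2 fell, beside 21.3% and 24.1% of the rows in the stretches. DESeq2 called 1 higher and 2 lower, and over all rows it called 637 higher and 309 lower. The share of rows that DESeq2 called was not computed, so nothing is read from its counts. The median log2 fold change of the 10 was -0.03, against -0.01 for all rows.

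Tdrd7, an interferon-induced gene whose product limits virus replication, rose in Gata2 KO. It had 58.9, 80.1, 72.6 and 79.4 CPM in Gata2 f/f replicates 1 to 4 and 133, 123, 127 and 138 CPM in Gata2 KO replicates 1 to 4, with no overlap. The log2 fold change was 0.86 ± 0.11 (SE, adjusted p = 0.000471, edgeR). It was higher in 4 of 4 replicate numbers and past the threshold in all 16 alternative settings, with an adjusted p of at most 0.00368.

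Nsmaf, an adaptor of the TNF receptor that couples it to neutral sphingomyelinase, fell. It had 355, 401, 388 and 359 CPM in Gata2 f/f replicates 1 to 4 and 275, 290, 292 and 305 CPM in Gata2 KO replicates 1 to 4, with no overlap, which 8.54% of all rows tested showed in that direction. The log2 fold change was -0.35 ± 0.10 (SE, adjusted p = 0.0314, edgeR, and 0.000426 with the block). The call was lost in 8 of 16 alternatives, 7 of them with 1 library left out (adjusted p = 0.0555 to 0.104; it held without Gata2 f/f replicate 4) and 1 with no filter on low counts (0.251).

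Mtdh, whose product metadherin acts with NF-kB in the nucleus, had 2030 ± 65.8 CPM in Gata2 f/f and 1646 ± 57.0 in Gata2 KO (SD, n = 4 each), with no overlap. It did not pass in edgeR (adjusted p = 0.0858), and passed with the block (0.000874), in DESeq2 (0.0154) and with library totals (0.0219). Chmp5, an ESCRT-III protein of endosomal sorting, had 305 ± 22.8 CPM in Gata2 f/f and 369 ± 23.1 in Gata2 KO, also with no overlap. The adjusted p of edgeR was 0.142, and 0.00135 once the block was added. Tgfbr1, a receptor upstream of TAK1, had 432 ± 37.3 and 508 ± 71.8 CPM, with an edgeR adjusted p of 0.324, or 0.00578 when blocked.

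The log2 fold changes of the MAVS adaptor Trim14 (0.01 ± 0.13, SE), the NF-kB cofactor Akirin2 (-0.14 ± 0.13), the segregase Vcp (-0.04 ± 0.11) and Casp8ap2 (-0.13 ± 0.32) did not pass in edgeR, with or without the block. Among the cytokines and receptors Il11ra1 alone was tested and did not pass (-0.02 ± 0.19, SE). Ccl19 and Ccl21a had 0 counts in all 8 libraries, Ccl27a had 1 and Ifnk had 2, so neither interferon kappa nor these chemokines were detected above the floor. Ccl21a, Ccl27a and Il11ra1 belong to a region with near-identical copies, and their counts are uncertain.

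**Figure D4:**
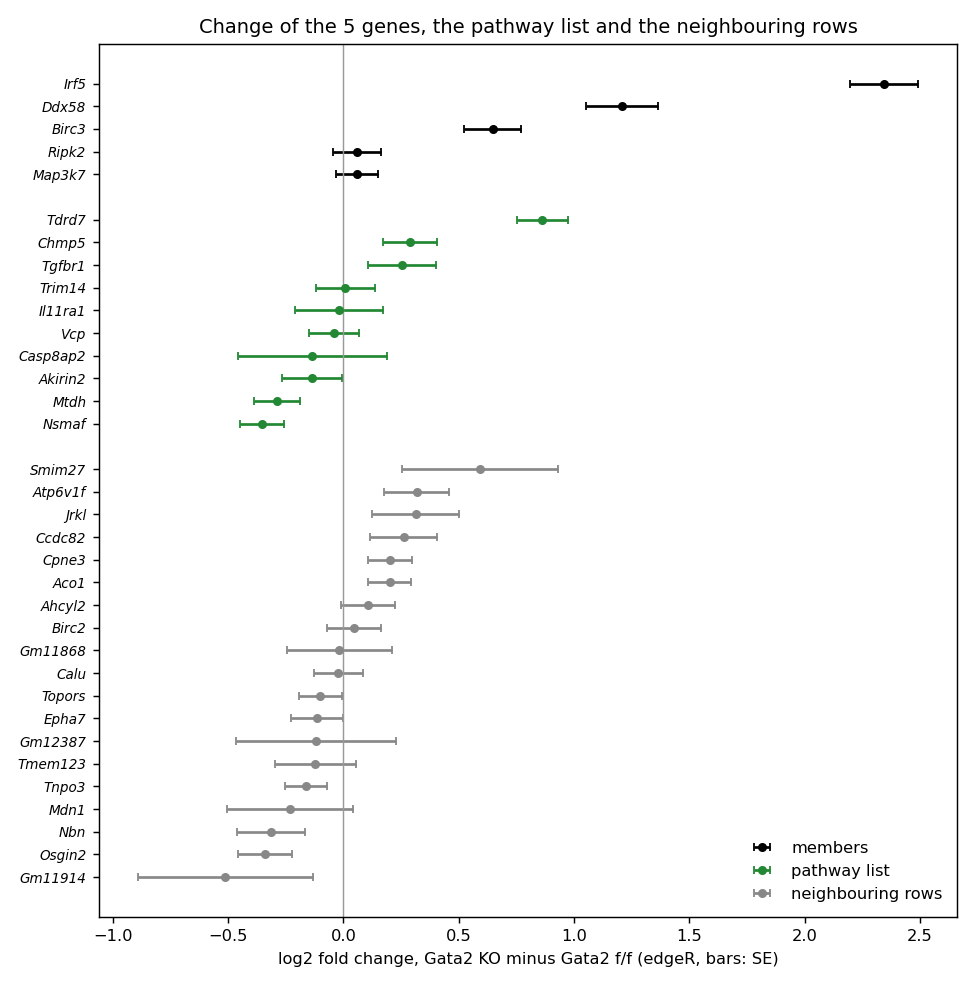
Log2 fold change, Gata2 KO minus Gata2 f/f (x axis), with its SE from edgeR, for the 5 genes in black, the 10 tested genes of the pathway list in green and the neighbouring rows in grey. Irf5, at 2.34, and Ddx58, at 1.21, lie to the right of every listed gene and neighbouring row, and Tdrd7, at 0.86, lies to the right of Birc3, at 0.65.

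Rows whose pattern was most like that of each of the 5 genes were sought among the 249 other rows tested in the 3 stretches, by Pearson's r of log2 CPM over the 8 libraries, which share their genotype groups and depths. For Irf5 these were Fam214b (r = 0.97), the galactosyltransferase gene B4galt1 (0.96) and the p53 target Trp53inp1 (0.96). For Ddx58 they were B4galt1 (0.98), Mob3b (0.94) and Rnf19a (0.94), and for Birc3 Glipr2 (0.92), B4galt1 (0.91) and Rnf19a (0.89). B4galt1 was thus listed for each of the 3 higher genes. Every row listed for these 3 was itself higher in Gata2 KO without overlap, as were 10.8% of all rows tested. Their r therefore cannot separate a shared genotype difference from any closer likeness. B4galt1 had 866 ± 26.1 CPM in Gata2 f/f and 1098 ± 21.2 in Gata2 KO (SD, n = 4 each), and Rnf19a had 127 ± 7.03 and 147 ± 7.08. Ripk2 was most like Fancg (0.85), Gba2 (0.85) and Wasl (0.76), and Map3k7 most like Fbxl4 (0.91), Stx17 (0.83) and Spag1 (0.80), which had 200 counts in all.

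Markers of other cell types that lie in the 3 stretches were read beside these results. The macrophage and osteoclast genes Tfec and Atp6v0d2 summed to 944 to 1231 CPM in Gata2 f/f and 1522 to 1885 in Gata2 KO, mostly from Tfec. Both genes were higher in Gata2 KO without overlap, as were 10.8% of all rows tested, and moved in the same direction as Irf5, Ddx58 and Birc3. The marker list was chosen with earlier results of these data known. Neither this direction nor the p-value of Tfec below is therefore an independent readout of cell type. Tfec, a transcription factor of macrophages, had 1107 ± 123 and 1624 ± 176 CPM (SD, n = 4 each; adjusted p = 0.0231, edgeR), and Atp6v0d2 had 7.83 ± 4.38 and 59.2 ± 58.7. Their part in the differences of the 5 genes was not tested. The B lymphoid genes Pax5 and Cd72 summed to at most 1.94 CPM in any library. The stromal and endothelial genes summed to 11.8 to 16.6 CPM in Gata2 f/f and 8.72 to 13.9 in Gata2 KO, nearly all from Reck and Col15a1, while Cav1 and Tpm2 had 1 count each in all.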

How the data were processed

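The authors deposited 1 table of whole, unnormalized counts per Ensembl gene and library. Per the submitters' processing notes, kallisto, HTSeq and DESeq2 were used with mm10. Which of these gave the counts, with what version, annotation and strand setting, is not given in the sources used here. Of 49585 rows, 49326 had a symbol and a GRCm38 position in GENCODE M21 by identifier without its version, and 88.2% matched with it, the 5 genes included. CPM used library totals. Counts were tested with edgeR 4.0.16 (R 4.3.3): TMM factors (0.940 to 1.07), the default filter by genotype (minimum count 10; 6580 rows), the quasi-likelihood F-test on genotype, and Benjamini-Hochberg adjustment with a threshold of 0.05. SE is the log2 fold change over the root of F. All 5 genes and 10 of the 14 listed passed the filter. On simulated counts with 6580 genes for this comparison, 98% of 100 genes changed by 1 on the log2 scale were called. The simulation gave every gene the same dispersion and no pairing by replicate number, and changed only genes above a minimum expected count. Its share called is therefore not the power in the real libraries. The 3 stretches run between Rps20 and Mrpl50, Ndufa4 and Ube2h, and Cct5 and Atp6v1c1.

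The 5 genes, the pathway and marker lists, the 3 stretches and the naming rule were chosen with earlier results of these data known. The rule named the 5 genes, the listed genes, the 2 nearest tested rows on each side of each gene, Birc2, and the 3 rows most like each gene. Replicate numbers come from the sample titles. Deviations from the genotype means correlated at 0.794 between the libraries numbered 4, and at 0.205 to 0.319 between equal numbers from 1 to 3. Unequal numbers from 1 to 3 gave 0.0898 to 0.173, close below. Number 4 with any other number gave -0.462 to -0.321. Equal numbers were therefore treated as pairs in the ratios within replicate numbers and in the fit with the replicate block. The main edgeR fit used genotype only and left this pairing out. What a number stands for is not in the labels. Libraries of a genotype differed by more than sampling noise (chi-square over its degrees of freedom 2.20 to 19.0), so none was counted as a repeat. Alternatives were other scalings, DESeq2 1.42.0, other filters, the replicate block and leaving out libraries.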

Additional observations from a re-analysis of the deposited data

Results flagged for a closer look

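Among 49 named genes, 98 groups of 4 libraries were examined, and in 8 of them 1 library stood apart from the other 3 (a gap, as a share of the range, above Dixon's 95% critical value, which chance gives in about 1 of 20 groups). Of the pathway list, Trim14 had 137 CPM in Gata2 f/f replicate 2 against 110 to 114, and Casp8ap2 had 294 CPM in Gata2 KO replicate 4 against 145 to 152 in the other 3. Casp8ap2 was also high in Gata2 f/f replicate 4, at 388 CPM against 106 to 170 in the other controls, which was not past the critical value. None of the 5 genes was among the 8 groups. Of the rows with a similar pattern, B4galt1 had 904 CPM in Gata2 f/f replicate 4 (others 848 to 857), Gba2 had 144 in the same library (103 to 110) and Rnf19a had 158 in Gata2 KO replicate 1 (143 to 144). Wasl had 69.9 CPM in Gata2 f/f replicate 4 (others 39.6 to 42.2) and 71.2 in Gata2 KO replicate 4 (38.9 to 41.9). The marker Atp6v0d2 had 146 CPM in Gata2 KO replicate 3 (others 16.5 to 38.5). In 5 of the 8 the library was numbered 4.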

How the results depend on the processing

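The log2 fold changes of the 5 genes are given here as values only, since the genes were picked on this contrast. Leaving out 1 library gave 2.24 to 2.46 for Irf5, 1.12 to 1.37 for Ddx58, 0.57 to 0.71 for Birc3, 0.01 to 0.10 for Ripk2 and 0.04 to 0.08 for Map3k7. With the replicate block they were 2.39, 1.17, 0.64, 0.07 and 0.06.

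Counts of calls moved with the setting. Outside the main fit and the replicate block, the share of tested rows called was not computed. Nothing is therefore read from the counts of the pathway list and the neighbouring rows there. Over all rows 590 were higher and 232 lower, against 1237 and 1102 with the replicate block, 894 and 543 without both libraries numbered 4, and 420 to 722 and 120 to 381 with 1 library left out. Fewer rows were lower when Gata2 KO replicate 2 (133) or replicate 3 (128) or the control libraries 2 (148) and 3 (120) were each left out, and more without control library 4 (381). Of the pathway list, 1 was higher and 1 lower, against 3 and 2 both with the block and when the libraries numbered 4 were left out, 2 and 2 with TMM factors from the checked rows, 2 lower with library totals or DESeq2, 0 lower with no filter, and 0 to 1 lower with 1 library left out. Of the neighbouring rows 0 were called, against 5 higher and 4 lower when blocked, 1 and 1 without both libraries numbered 4, 1 lower with library totals, and 0 to 1 in each direction with 1 library left out. Some small changes changed sign: Trim14 was at -0.011 with DESeq2-type size factors, -0.0095 with library totals and -0.014 with DESeq2, Casp8ap2 at 0.056 without both libraries numbered 4, Il11ra1 at 0.033 when blocked and Gm11868 at 8.19e-06 with no filter. With 1 library left out the log2 fold change ran from -0.072 to 0.079 for Trim14, -0.42 to 0.32 for Casp8ap2, -0.10 to 0.034 for Vcp, -0.13 to 0.078 for Il11ra1, -0.088 to 0.020 for Calu, -0.34 to 0.13 for Gm12387, -0.22 to 0.16 for Gm11868, -0.43 to 0.052 for Mdn1, -0.26 to 0.0092 for Tmem123 and -0.023 to 0.081 for Birc2. The cause was not tested.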
